A study of Mus musculus with 8 samples.

Results

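The genes described here take up or convert vitamin A (retinol), turn it into its active form, retinoic acid, or back, and carry or sense retinoic acid. There are 9 of them among the 31854 rows of the deposited count table: Stra6, Retsat, Rdh10, Dhrs3, Aldh1a1, Aldh1a2, Aldh1a3, Crabp2 and Rarb. They were chosen by name, by exact match of the symbol, and each stood on a single row. The tissue was epididymal white fat, the depot beside the testis, of mice fed a high-fat diet. The 4 S273A libraries (replicates 2, 3, 4 and 6) came from mice whose PPAR-gamma carries alanine in place of serine 273. The 4 WT libraries (replicates 1, 2, 3 and 5) came from mice with the wild-type receptor. All 8 libraries share the diet and the depot, and the labels give no age, litter or statement that each library is a separate animal. The p-values therefore rest on library-to-library spread, and part of that spread may be technical. The knock-in changes 1 residue of Pparg, so no transcript level checks the genotype labels.

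Retinol reaches fat cells bound to the plasma carrier RBP4 or as retinyl esters, and adipose tissue is, after the liver, a main store of the vitamin. Inside the cell retinol is oxidised reversibly to retinal, and retinal irreversibly to retinoic acid. Retinoic acid binds the RAR nuclear receptors, which pair with RXR on repeated short motifs in DNA; PPAR-gamma, the receptor altered in these mice, uses the same RXR partner. In fat, retinal and retinoic acid are known to restrain adipocyte formation and to favour fat burning.

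Rarb was the receptor gene among the 9, and it is a textbook target of its own ligand. Its RefSeq promoter window (GRCm38.p6, minus strand, chr14:16575427-16575726) is shown because it holds the element through which retinoic acid is known to induce the gene. That window runs from 250 bases before to 50 bases after the annotated start, and capitals mark that element.
Rarb promoter: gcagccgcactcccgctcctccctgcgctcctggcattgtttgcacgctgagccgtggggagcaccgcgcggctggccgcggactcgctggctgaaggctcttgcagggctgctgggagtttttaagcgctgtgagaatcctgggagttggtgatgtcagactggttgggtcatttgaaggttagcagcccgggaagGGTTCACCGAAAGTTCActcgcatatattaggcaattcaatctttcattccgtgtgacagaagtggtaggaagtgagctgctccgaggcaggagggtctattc
The element is a direct repeat with 5 bases between its copies. The letters of a copy could be AGGTCA or AGTTCA, or else GGTTCA or GGGTCA, on either strand; a window was searched for each spacer separately. Cyp26a1, the gene of the main retinoic acid-degrading enzyme, is shown beside Rarb as a further textbook target, and its window (chr19:37697558-37697857, plus strand) held one as well, on the opposite strand. The sites are set side by side, the copies of the repeat in capitals.
Rarb site: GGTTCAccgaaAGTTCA
Cyp26a1 site: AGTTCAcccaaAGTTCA
The first base of the Rarb site lies at -53 from the start, and the Cyp26a1 site begins at -32 on the gene's own strand. Such a repeat with a 5-base spacer stood in 0.0974% of 32851 promoter windows of this length. Of the 9 genes, 6 had a window in the table (Stra6, Retsat, Dhrs3, Aldh1a1, Aldh1a2 and Rarb), with 12 windows in all. Rdh10, Aldh1a3 and Crabp2 had none. No other of these windows held a repeat with a spacer of 5, 2 or 1, the last being the spacing that PPAR-gamma and RXR bind. Spacers of 2 and 1 stood in 0.268% and 0.222% of all windows. A match is a description of letters, not evidence of binding.

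Library totals ran from 16161127 to 18194889 counts in S273A and from 14880239 to 17266209 counts in WT. Levels are given as normalised CPM, counts scaled to 1000000 per TMM-adjusted library. Levels of different genes are compared as CPM per kilobase of the deposited feature length. Over all 15667 rows tested with edgeR's quasi-likelihood test, 0 had an adjusted p under 0.05, which is 0% of rows. Before adjustment, 229 rows (1.46%) had a p under 0.05. DESeq2 called 1 row, Gdf3, and limma-voom 0. The summed level of 12 adipocyte markers was 8084 to 10860 CPM in S273A and 6919 to 10240 CPM in WT, and none of these markers was at 0. The 11 epididymis and testis markers with a row summed to 5.29 to 8.03 CPM in S273A and 5.95 to 7.36 CPM in WT, and 4 of them (Defb1, Lcn8, Crisp4 and Spag11b) were at 0 in every library. Most of that sum was Sox9, at a mean of 5.04 CPM in S273A and 5.16 CPM in WT. Adam7 of the same list had 20 reads in S273A, all in replicate 2 (1.115 CPM), and 0 reads in WT. Traces of epididymis in S273A replicate 2 were therefore not excluded. Estimates without this library are given below for Retsat, Aldh1a1, Aldh1a2 and Rarb.

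Per kilobase, the 9 genes spanned more than 3 orders of magnitude, and the order was led by enzymes. Dhrs3 averaged 193 ± 7.65 CPM per kilobase over the 8 libraries (SD), Aldh1a1 78.9 ± 9.90 and Retsat 45.6 ± 6.68. Their ranges did not overlap one another. Aldh1a3 (10.7 ± 0.798), Aldh1a2 (7.29 ± 1.31) and Rdh10 (6.06 ± 0.514 CPM per kilobase) formed a lower tier. In that tier the range of Aldh1a3 overlapped that of Aldh1a2, and Aldh1a2 overlapped Rdh10. Rarb averaged 1.72 ± 0.179 CPM per kilobase, clear of its neighbours on either side. Stra6 was at 0.112 ± 0.0378 CPM per kilobase, and Crabp2 was close to absent, its single read standing above the lowest Stra6 library per kilobase. Among 71 retinoid genes with a row (these 9 and 62 others from pathway lists), Dhrs3 ranked 6 by level per kilobase, Aldh1a1 12 and Retsat 15.

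**Figure D1:**
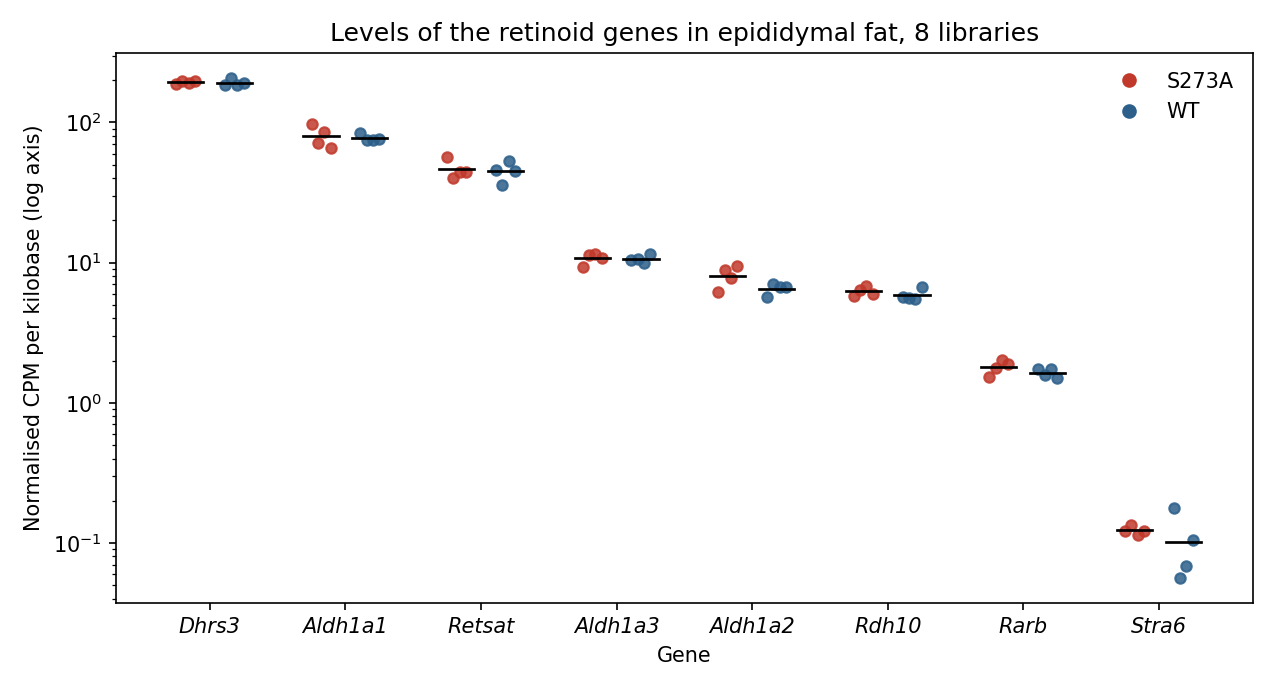
Normalised CPM per kilobase of each library (points) on a log axis for the 8 genes with a testable level, ordered by their mean, with S273A left of WT and the group mean as a black bar. Dhrs3 lies highest, at a mean of 193 CPM per kilobase, Stra6 lowest at 0.112, and S273A and WT points overlap for every gene; Crabp2 is left out because it had 1 count in all.

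The genotype comparison asked whether these transcripts differ in fat when serine 273 cannot be phosphorylated. None of the 8 tested genes passed, against 0% of all rows called. Crabp2 did not reach the count minimum and was not tested in this main fit. All 8 estimates were positive, from 0.0036 for Dhrs3 to 0.30 for Aldh1a2 on the log2 scale. Their median was 0.069, beside a median of 0.0015 over all tested rows; Stra6 entered the test through 3 S273A libraries and 1 WT library, so neither the count of positive estimates nor the median is support for a change. In none of the 8 did the genotypes separate completely, where 1.19% of all rows did: 0.657% with all S273A libraries above all WT libraries, and 0.53% with all below.

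**Figure D2:**
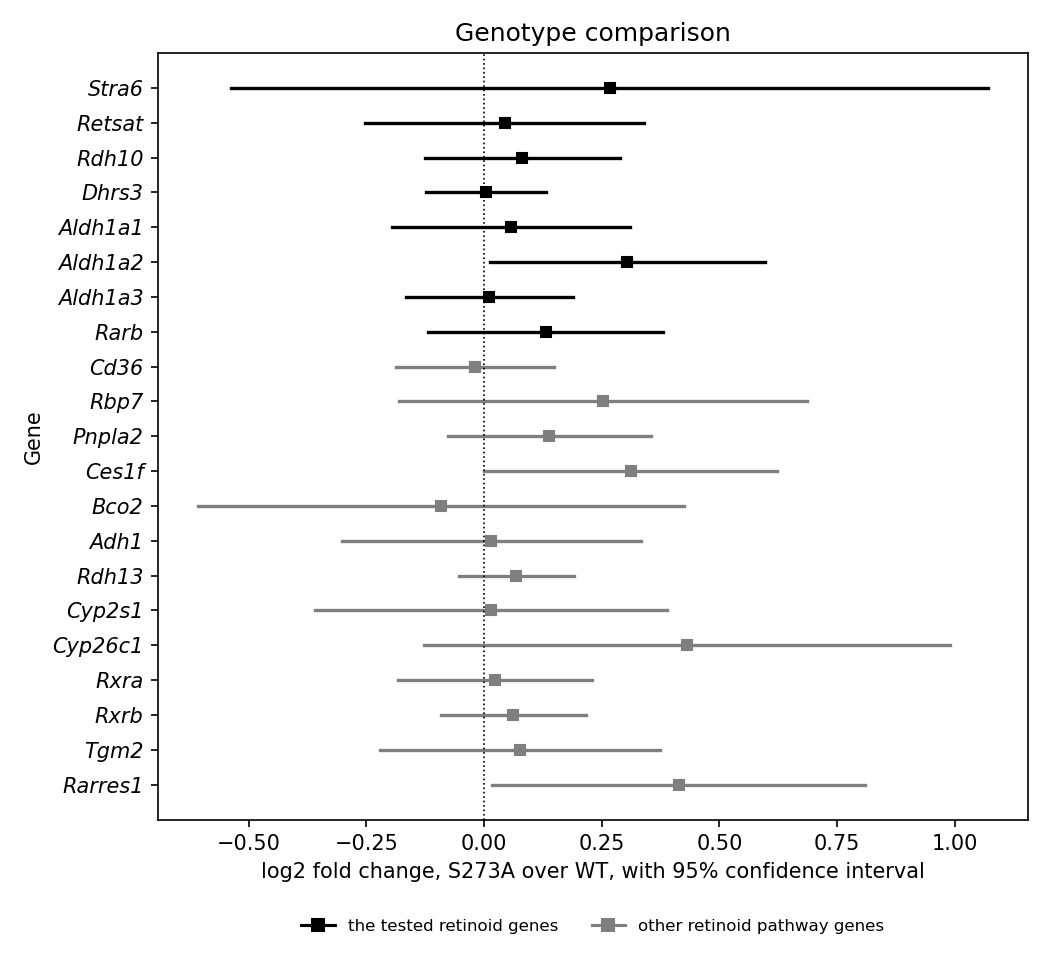
Log2 fold change of S273A over WT with its 95% confidence interval from edgeR, for the 8 tested genes (black) and for 13 other retinoid pathway genes named by a fixed rule (grey); the dotted line marks no difference. Only the intervals of Aldh1a2 and Rarres1 lie wholly above 0, and neither gene passed after adjustment over all rows.

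Uptake through Stra6, the membrane receptor that takes retinol from RBP4, was hardly represented. Stra6 (uc012guc.1, chromosome 9, 58063788 to 58153996, plus strand, GENCODE M21 on GRCm38) had 11, 12, 10 and 10 reads in S273A replicates 2, 3, 4 and 6. It had 15, 5, 5 and 9 reads in WT replicates 1, 2, 3 and 5. The WT libraries bracketed the S273A ones at both ends. The means were 0.619 ± 0.0414 CPM in S273A and 0.511 ± 0.273 CPM in WT (SD, n = 4 each). This was a log2 fold change of 0.27, with SE 0.36 and a 95% confidence interval of -0.54 to 1.07, so a 2-fold increase in S273A was not excluded at this depth.

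Retsat encodes retinol saturase, which reduces a double bond of retinol; it is a known PPAR-gamma target and is needed for adipocyte differentiation in mouse cells. Retsat (uc009cix.1, chromosome 6, 72598475 to 72608425, plus strand) was at 110.0, 77.4, 85.5 and 85.3 CPM in S273A replicates 2, 3, 4 and 6. It was at 88.2, 69.4, 103 and 87.5 CPM in WT replicates 1, 2, 3 and 5. S273A replicate 2 was the highest of all 8 and WT replicate 2 the lowest, and the groups overlapped over most of their range. S273A over WT gave a log2 fold change of 0.044 with SE 0.13 (95% interval -0.25 to 0.34; edgeR adjusted p 1.00). It was -0.071 without S273A replicate 2 and -0.051 without WT replicate 2, so single libraries set its sign. In the annotation 650 of its 3537 exonic bases are shared with Gm45053 on the other strand, and the libraries hold no strand information.

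Rdh10 oxidises retinol to retinal, the step that limits retinoic acid synthesis in the mouse embryo, and Dhrs3 reduces retinal back to retinol; the 2 proteins are known to activate each other. Rdh10 (uc007ajm.1, chromosome 1, 16105774 to 16133734, plus strand) was at 13.3, 14.7, 15.6 and 13.7 CPM in S273A replicates 2, 3, 4 and 6. In WT replicates 1, 2, 3 and 5 it was at 13.1, 12.9, 12.6 and 15.4 CPM. WT replicates 1, 2 and 3 lay below every S273A library and WT replicate 5 lay near the top. Its log2 fold change of 0.082 had SE 0.092 and a 95% interval of -0.12 to 0.29, and it was 0.037 without S273A replicate 4 and 0.15 without WT replicate 5. Dhrs3 (uc012dov.1, chromosome 4, 144892827 to 144928209, plus strand) was at 366, 386, 372 and 384 CPM in S273A replicates 2, 3, 4 and 6. In WT replicates 1, 2, 3 and 5 it was at 363, 405, 360 and 375 CPM. Dhrs3 was the steadiest of the 8 tested genes, with a coefficient of variation of 4.28% within genotypes, and WT held both its highest and its lowest library. Its log2 fold change was 0.0036 (SE 0.057), and the 95% confidence interval of -0.12 to 0.13 was the narrowest among the 8.

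The Dhrs3 transcript outweighed that of Rdh10 in every library. This compares 2 transcripts, not enzyme activities, and leaves out other genes that can oxidise retinol, such as Adh1 at 59.4 CPM per kilobase. Per kilobase the Dhrs3 level was 28.0 to 33.0 times that of Rdh10 in S273A and 28.6 to 36.9 times in WT, with means of 31.1 ± 2.24 and 32.9 ± 3.43 (SD, n = 4 each). The means differed by -1.83, less than the spread within WT (two-sided exact permutation test p = 0.343, adjusted p = 0.667 over 5 such ratios and shares). It was -0.499 without WT replicate 2 and -3.27 without WT replicate 5. These ratios and shares were chosen after values were seen, and the smallest p that 4 against 4 libraries can give is 0.0286.

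The Aldh1a enzymes oxidise retinal to retinoic acid and so commit the vitamin to signalling. Aldh1a1, the isoform whose loss protects mice from diet-induced obesity, dominated. Aldh1a1 (uc008gym.1, chromosome 19, 20492715 to 20643465, plus strand) was at 199, 145, 175 and 135 CPM in S273A replicates 2, 3, 4 and 6. In WT replicates 1, 2, 3 and 5 it was at 170.2, 152, 152 and 155 CPM. The S273A libraries enclosed all 4 WT libraries, with a SD of 29.0 CPM in S273A and 8.83 CPM in WT. For S273A over WT the log2 fold change of 0.057 had SE 0.11 and a 95% interval of -0.20 to 0.31, and it was -0.051 without S273A replicate 2.

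Aldh1a2, the enzyme that supplies most retinoic acid in the mouse embryo and is also a gene of the mesothelium covering the depot, had the smallest unadjusted p of the 9 genes. Aldh1a2 (uc009qox.2, chromosome 9, 71215789 to 71296243, plus strand) was at 13.9, 20.02, 17.6 and 21.35 CPM in S273A replicates 2, 3, 4 and 6. It was at 12.9, 16.0, 15.1 and 15.1 CPM in WT replicates 1, 2, 3 and 5. S273A replicates 3, 4 and 6 lay above every WT library, and S273A replicate 2 lay below 3 of them. The means were 18.23 ± 3.25 CPM in S273A and 14.8 ± 1.32 CPM in WT (SD, n = 4 each). That is a log2 fold change of 0.30 with SE 0.13 and a 95% interval of 0.012 to 0.60. The unadjusted p was 0.0429 and the edgeR adjusted p was 1.00, so Aldh1a2 did not pass; 1 of 8 tested genes with an unadjusted p under 0.05 stands beside 1.46% of all rows. Leaving out 1 library at a time gave log2 fold changes from 0.22 to 0.41, all positive, and unadjusted edgeR p-values from 0.00268 to 0.13. The largest estimate and the smallest p both came without S273A replicate 2, the library with the Adam7 reads. Of the mesothelial markers, all 14 had positive estimates, 1 had an unadjusted p under 0.05 and none was called, and their sum was 504 to 625 CPM in S273A and 418 to 529 CPM in WT. Estimates were also positive for all 12 endothelial and 11 of 12 adipocyte markers, for 4 of 12 progenitor and fibroblast markers and for 2 of 11 macrophage markers. None of the 14 mesothelial markers was at 0, and their part in the Aldh1a2 difference was not tested. Over the 8 libraries Aldh1a2 and the mesothelial sum had r = 0.36, and 0.032 with genotype means subtracted. In whole-tissue RNA, fewer cells of a type and less RNA per cell cannot be told apart.

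Aldh1a3, the remaining isoform, averaged 42.2 ± 4.04 CPM in S273A and 41.8 ± 2.58 CPM in WT (SD, n = 4 each). Aldh1a3 (uc009hhi.2, chromosome 7, 66390890 to 66427517, minus strand) was at 36.4, 44.5, 45.3 and 42.5 CPM in S273A replicates 2, 3, 4 and 6. In WT replicates 1, 2, 3 and 5 it was at 41.4, 41.8, 38.9 and 45.2 CPM. S273A held both the lowest and the highest library. A log2 fold change of 0.011 with SE 0.079 (95% interval -0.17 to 0.19) was estimated.

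As shares of the summed Aldh1a level per kilobase, Aldh1a1 made up 80.7% ± 4.36 in S273A and 81.8% ± 1.41 in WT (SD, n = 4 each). Aldh1a2 made up 8.35% ± 2.42 in S273A and 6.92% ± 0.855 in WT. Aldh1a3 made up 10.97% ± 1.99 in S273A and 11.25% ± 0.743 in WT. No share differed by more than the spread within S273A (two-sided exact permutation p of 0.629, 0.314 and 0.914; adjusted p of 0.786, 0.667 and 0.914). The Aldh1a2 difference of 1.42 percentage points exceeded the SD within WT, and those of Aldh1a1 and Aldh1a3 did not. In S273A the Aldh1a1 share ran from 76.6% in replicate 6 to 86.4% in replicate 2, a wider range than the 80.7% to 83.8% seen in WT; whether the spreads differ was not tested. The 3 transcripts shared no identical window of 36 bases, the read length, in the annotated transcript sequences, so no read could match 2 of them exactly.

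**Figure D3:**
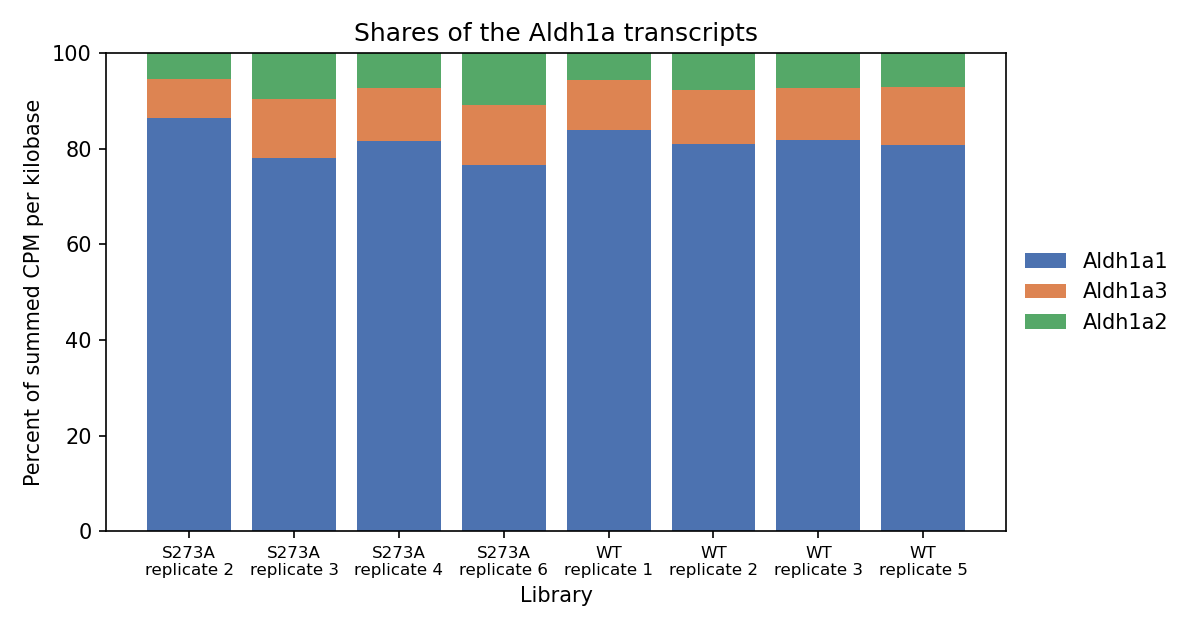
Stacked bars give the percent of the summed Aldh1a1, Aldh1a3 and Aldh1a2 level (normalised CPM per kilobase) for each library, S273A left of WT. Aldh1a1 fills 76.6% to 86.4% of every bar, and Aldh1a2 has its largest share, 10.9%, in S273A replicate 6.

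Crabp2, which carries retinoic acid to RAR in the nucleus, was close to absent. Crabp2 (uc008ptk.1, chromosome 3, 87948666 to 87953376, plus strand) had 0 counts in the 4 S273A libraries and 1 count in WT, in replicate 1. A count of 0 in 69370478 S273A counts allows up to 0.0432 CPM (3 counts over the group). The single WT count is 0.0151 CPM with an exact Poisson 95% interval of 0.000383 to 0.0842 CPM. Interval and limit cover counting error only, and no fold is given.

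Rarb, the receptor gene induced by retinoic acid through the element printed above, was measured well above the floor. Rarb (uc007shj.2, chromosome 14, 16430839 to 16819156, minus strand) was at 7.47, 8.72, 9.94 and 9.23 CPM in S273A replicates 2, 3, 4 and 6. In WT replicates 1, 2, 3 and 5 it was at 8.54, 7.79, 8.55 and 7.40 CPM. S273A replicates 3, 4 and 6 lay above every WT library, while S273A replicate 2 was next to the lowest of all 8. The means were 8.84 ± 1.04 CPM in S273A and 8.07 ± 0.574 CPM in WT (SD, n = 4 each). Rarb's log2 fold change of 0.13 had SE 0.11 and a 95% interval of -0.12 to 0.38 (edgeR adjusted p 1.00). It was 0.070 without S273A replicate 4 and 0.20 without S273A replicate 2. Of the summed RAR level per kilobase (Rara, Rarb and Rarg), Rarb held 10.1% ± 1.29 in S273A and 9.33% ± 0.879 in WT (exact permutation p = 0.4, adjusted p = 0.667). That difference of 0.729 percentage points was 0.166 without S273A replicate 4 and 1.21 without S273A replicate 2. In the annotation 2020 of the 5265 exonic bases of Rarb overlap genes on the plus strand, among them Top2b, a DNA topoisomerase. Top2b was at 166 ± 1.10 CPM in S273A and 166 ± 8.22 CPM in WT, and reads of the shared bases cannot be told apart between this more abundant gene and Rarb.

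The 8 tested genes did not vary together as a block. Of their 28 pairs, 0 were correlated after adjustment and 2 had an unadjusted p under 0.05 (Pearson r of log2 CPM over the 8 libraries, exact permutation, two-sided). Retsat and Dhrs3 ran in opposite directions, with r = -0.865 (exact permutation p = 0.00501, adjusted p = 0.14) and Spearman's rho = -0.905 (exact p = 0.00456, adjusted p = 0.128). Without S273A replicate 2 and WT replicate 2, the libraries farthest from the Retsat median, r was -0.823. Rdh10 and Aldh1a3 ran in parallel, with r = 0.78 (exact p = 0.0223, adjusted p = 0.313) and rho = 0.833 (exact p = 0.0154, adjusted p = 0.215), and r was 0.607 without S273A replicate 4 and WT replicate 5. Over all 8 libraries neither pair passed the adjustment. Rdh10 and Aldh1a3 passed once S273A replicate 2 was left out (r = 0.948, exact permutation adjusted p = 0.0167).

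In both genotypes the libraries with more Aldh1a1 had less Aldh1a2: the order was exactly opposite in S273A, and opposite in WT but for the 3 libraries close together at 152 to 155 CPM of Aldh1a1. Over the 8 libraries as they stand, r was -0.67 (exact permutation p = 0.0675, adjusted p = 0.472) and rho was -0.69 (exact p = 0.0694, adjusted p = 0.324). Without S273A replicates 2 and 4, the libraries farthest from the Aldh1a1 median, r was -0.944. With each genotype's mean subtracted first, r was -0.959 and passed (permutation adjusted p = 0.00139 over 28 pairs), and Retsat and Dhrs3 passed as well (r = -0.876, adjusted p = 0.0333). That permutation treats the deviations as exchangeable, which subtracting the means makes approximate. The library with the most Aldh1a1 in each genotype, S273A replicate 2 and WT replicate 1, was the one with the least Aldh1a2.

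Retsat and Dhrs3 also followed the summed level of the adipocyte markers, in opposite directions. Of 40 relations between the 8 genes and the summed CPM of 5 marker lists (adipocyte, mesothelial, progenitor and fibroblast, macrophage and endothelial), these 2 passed. Retsat was higher where the adipocyte total was higher, with r = 0.92 (exact permutation p = 0.000769, adjusted p = 0.0308) and rho = 0.905 (exact p = 0.00456, adjusted p = 0.183). Dhrs3 was lower there, with r = -0.923 (exact p = 0.00181, adjusted p = 0.0362) and rho = -0.81 (exact p = 0.0218, adjusted p = 0.436). By rank, neither passed. Without the 2 libraries farthest from the gene's median, r was 0.783 for Retsat and -0.801 for Dhrs3. Leaving out 1 library at a time kept r between 0.864 and 0.975 for Retsat, and between -0.969 and -0.821 for Dhrs3. Both relations then passed without S273A replicate 4 (adjusted p 0.0159 and 0.0423) and without WT replicate 1 (0.0357 each), and neither passed without any of the other 6 libraries, up to an adjusted p of 0.409. WT replicate 2, with the lowest adipocyte total of 6919 CPM, had the least Retsat and the most Dhrs3. With RLE factors in place of TMM the Dhrs3 relation no longer passed (r = -0.889, exact permutation adjusted p = 0.0828). Gene and marker CPM share their libraries and totals, and the part of cell composition in these relations was not tested.

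**Figure D4:**
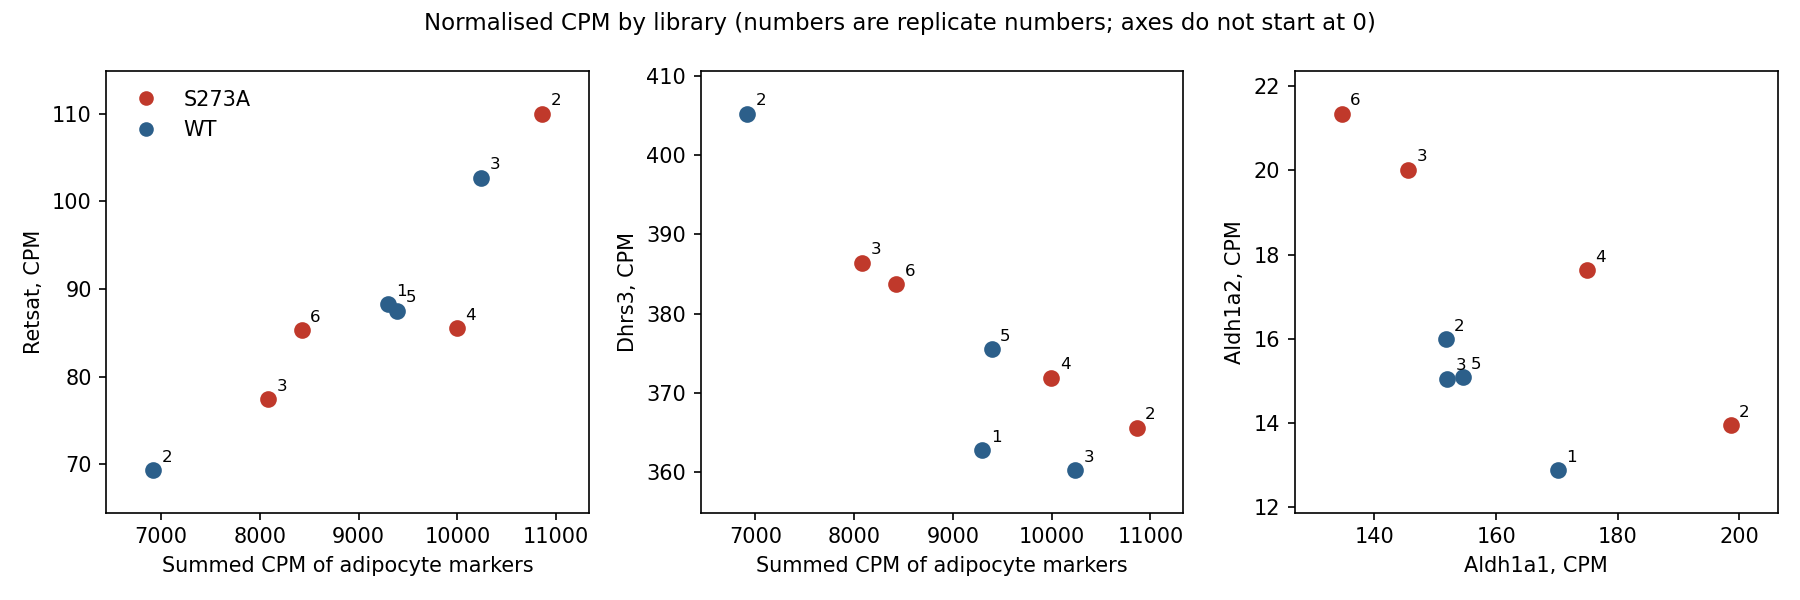
Normalised CPM of each library, marked by replicate number: Retsat (left) and Dhrs3 (middle) against the summed CPM of 12 adipocyte markers, and Aldh1a2 against Aldh1a1 (right), S273A in red and WT in blue. Retsat climbs and Dhrs3 drops as the adipocyte total goes from 6919 to 10860 CPM, and within each colour the library highest in Aldh1a1 is lowest in Aldh1a2.

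With the macrophage total, 11 genes such as Lyz2 and Csf1r, Dhrs3 had r = 0.82 (exact permutation p = 0.014, adjusted p = 0.187) and rho = 0.714 (exact p = 0.0576, adjusted p = 0.55), and r was 0.613 without WT replicates 2 and 3. Without WT replicate 2 alone r was 0.573, the lowest with 1 library left out, and without WT replicate 3 alone 0.842. With genotype means subtracted over all 8 libraries r was 0.921 and passed (permutation adjusted p = 0.0188 over 40 relations). With the endothelial total Dhrs3 had r = -0.756 (exact p = 0.0268, adjusted p = 0.268) and rho = -0.643 (exact p = 0.0962, adjusted p = 0.55), and r was -0.29 without WT replicates 2 and 3. Without WT replicate 2 alone it was -0.402, and without WT replicate 3 alone -0.725, so the relation rests mainly on WT replicate 2. Without S273A replicate 6 it was -0.978 and passed (exact permutation adjusted p = 0.00794). Macrophage totals were 3745 to 4308 CPM in S273A and 4051 to 4833 CPM in WT. Endothelial totals were 1040 to 1308 CPM in S273A and 878 to 1247 CPM in WT, and progenitor and fibroblast totals 4523 to 6303 CPM in S273A and 5081 to 6431 CPM in WT. All 5 totals overlapped between genotypes. For Aldh1a2, the relation to the mesothelial total had r = 0.36 (exact p = 0.386, adjusted p = 0.736) and rho = 0.31 (exact p = 0.462, adjusted p = 0.88), and r was 0.508 without S273A replicates 3 and 6. With genotype means subtracted that r was 0.032.

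**Figure D5:**
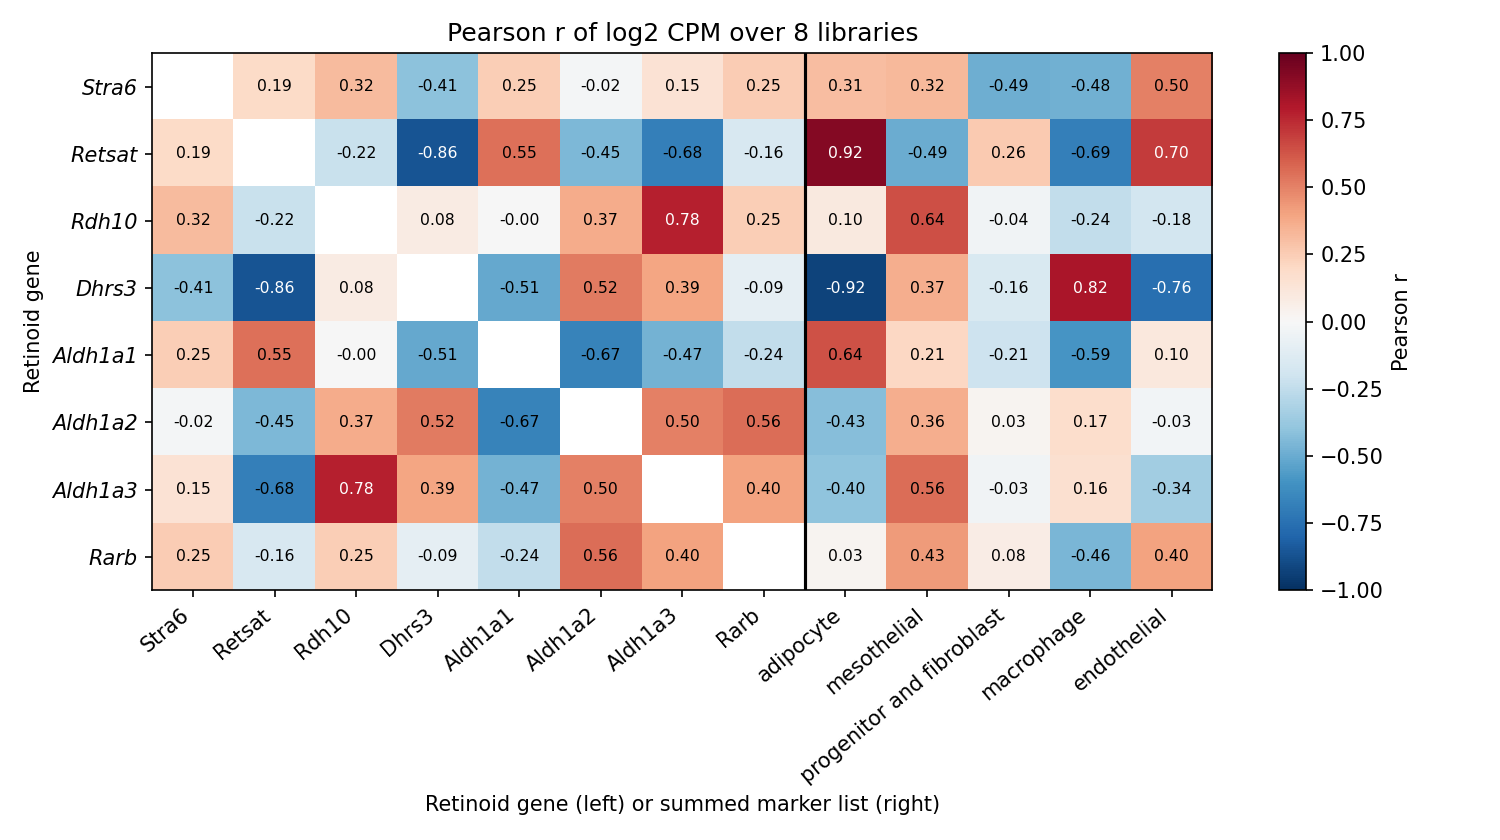
Pearson r of log2 CPM over the 8 libraries between the tested genes (left of the black line) and between each gene and the log2 summed CPM of 5 marker lists (right of it), red for positive and blue for negative. The strongest cells are those of Retsat (0.92) and Dhrs3 (-0.923) with the adipocyte total.

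For each gene the 3 rows with the most similar log2 CPM over the 8 libraries were sought among 12446 rows above a minimum mean log2 CPM of 1. The best of so many rows must correlate well, so no p is given. Retsat was closest to Mical3 (r = 0.984), Thnsl2 (0.979) and Per3 (0.977), a period gene of the circadian clock with the same rank order over the libraries as Retsat (rho = 1.0). Dhrs3 was closest to Lima1 (0.949), Hhex (0.946), a homeobox gene, and Msantd2 (0.937). Aldh1a1 was closest to Paip2b (0.959), Ankef1 (0.957) and Chd3os (0.957), which is antisense to another gene and cannot be told apart from it without strand information. The enzymes of lower level and Rarb had other companions. Aldh1a2 was closest to Nrxn2 (0.945), Zfp446 (0.939) and Mon1a (0.937), and Aldh1a3 to the homeobox gene Isl1 (0.97), Cyp4f13 (0.958) and Csnk1a1 (0.95). Rdh10 was closest to the hyaluronan synthase gene Has1 (0.974), Bbs1 (0.962) and Pold2 (0.943), and Rarb to the sphingosine phosphate exporter Spns2 (0.966), A4galt (0.966) and Exoc3l2 (0.959). Stra6 was closest to Cdk7 (0.975), Ecscr (0.947) and Osgin2 (0.941), on 5 to 15 reads per library. No gene was named for more than 1 of the 8.

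The rest of the retinoid pathway was described from 7 lists with 66 entries, of which 62 had a row and 47 were tested. None was called in either direction, 30 estimates were positive and 17 negative, and the median log2 fold change was 0.024, beside 0.0015 over all tested rows. An unadjusted p under 0.05 in the edgeR test was reached by 1 of the 47, beside 1.46% of all tested rows. For each list the gene with the highest level per kilobase and the gene with the smallest p are given.

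Among 8 tested carriers and uptake genes, 4 estimates were positive and 4 negative. Cd36, a scavenger receptor for lipids and carotenoids, was at 2949 ± 173 CPM in S273A and 2990 ± 94.96 CPM in WT (log2 fold change -0.020, SE 0.075). Rbp7, a retinol-binding protein of adipose endothelium, was at 14.8 ± 4.14 CPM in S273A and 12.5 ± 2.24 CPM in WT (0.25, SE 0.19). Of 7 tested storage and hydrolysis genes, 4 estimates were positive and 3 negative. Pnpla2, the triglyceride lipase that can also hydrolyse retinyl esters, was at 889 ± 83.4 CPM in S273A and 807 ± 83.5 CPM in WT (0.14, SE 0.096). Ces1f, a carboxylesterase with near-identical neighbours in its gene cluster, was at 30.1 ± 5.80 CPM in S273A and 24.2 ± 2.60 CPM in WT (0.31, SE 0.14, unadjusted p 0.0503, edgeR adjusted p 1.00). The Ces1f count is uncertain for that reason.

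Of 11 tested retinol and retinal enzymes outside the named set, 8 estimates were positive and 3 negative. Adh1, a cytosolic alcohol dehydrogenase that oxidises retinol, was at 79.7 ± 7.32 CPM in S273A and 78.9 ± 16.2 CPM in WT (log2 fold change 0.016, SE 0.14). Rdh13, a mitochondrial retinol dehydrogenase, was at 24.0 ± 0.658 CPM in S273A and 22.9 ± 0.295 CPM in WT (0.069, SE 0.054). Bco2, a carotenoid-cleaving enzyme and the 1 tested gene of its list, was at 1.79 ± 0.245 CPM in S273A and 1.90 ± 0.574 CPM in WT (-0.093, SE 0.23). All 3 tested genes of retinoic acid breakdown had positive estimates. Cyp2s1 was at 7.64 ± 1.40 CPM in S273A and 7.55 ± 1.43 CPM in WT (0.015, SE 0.17), and Cyp26c1, a retinoic acid hydroxylase, at 1.66 ± 0.443 CPM in S273A and 1.23 ± 0.239 CPM in WT (0.43, SE 0.25, unadjusted p 0.116).

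All 6 tested receptor genes of the list had estimates between -0.069 and 0.062, 4 positive and 2 negative. Rxra, the partner that PPAR-gamma and the RARs share, was at 223 ± 31.3 CPM in S273A and 220 ± 11.8 CPM in WT (log2 fold change 0.024, SE 0.092). Rxrb was at 43.9 ± 1.28 CPM in S273A and 42.1 ± 3.77 CPM in WT (0.062, SE 0.069). Of 11 tested genes that retinoic acid is known to induce in some tissue, 7 estimates were positive and 4 negative. Tgm2, tissue transglutaminase, was at 447 ± 69.95 CPM in S273A and 424 ± 64.8 CPM in WT (0.077, SE 0.13). Rarres1, a retinoic acid receptor responder, was at 2.53 ± 0.288 CPM in S273A and 1.90 ± 0.332 CPM in WT (0.41, SE 0.18, 95% confidence interval 0.017 to 0.81). Its unadjusted p of 0.0427 was the smallest of the 47 and its edgeR adjusted p was 1.00.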

How the data were processed

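RNA from epididymal white fat was measured in 4 S273A and 4 WT libraries. Per the labels' protocols, ribosomal RNA was removed from 400 ng of RNA, and cDNA without strand marking was tagmented, amplified for 12 cycles and read as pairs of 36 bases. The authors deposited 1 table of raw read counts per gene row, with a column of feature lengths in bases, another quantity that was used only for levels per kilobase. Per the submitters' processing notes, the tools were HISAT2 2.0.5, featureCounts 1.5.2, Picard 2.9.2, bcl2fastq 2.20.0 and edgeR 3.3.0, with mm10; their roles, the annotation and the handling of duplicate and multiply mapped reads are not given here. Totals ran from 14880239 to 18194889 counts, and no pair of same-genotype libraries looked like 1 library deposited again (lowest chi-square over its degrees of freedom 7.44). Between genotypes the lowest value was 5.78, for S273A replicate 6 and WT replicate 5. Some libraries were thus closer to a library of the other genotype than any 2 libraries of the same genotype were to each other.

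The main test used edgeR 4.0.16 (R 4.3.3) on the unaltered counts: filterByExpr defaults (a count of about 10 in 4 libraries and a total of 15, leaving 15667 of 31854 rows), TMM, glmQLFit with the robust option, glmQLFTest, and Benjamini-Hochberg adjustment over all tested rows with a threshold of 0.05. Standard errors come from the F statistic. Log2 CPM for correlations used a prior count of 2. Group comparisons of ratios and correlations used exact permutation over libraries. Alternatives were RLE factors, DESeq2 1.42.0, limma-voom (limma 3.58.1), no filter, leaving out each library, a replicate block, summed repeated symbols and, for correlations, subtracted genotype means, a prior count of 0.5 and ranks. The script was tested on simulated data. Gene positions come from GENCODE M21 (GRCm38) and promoters from RefSeq (GRCm38.p6). The genes, lists and tests were chosen with earlier results of these data known. Other retinoid genes were named by list, as the highest level per kilobase and the smallest p; the most similar genes were the 3 with the highest r; marker lists are illustrated by their most abundant genes; genes outside these rules are marked where they appear.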

Additional observations from a re-analysis of the deposited data

Results flagged for a closer look

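Among 36 groups of 4 libraries examined for a library standing apart from its group (8 genes, 5 ratios and shares, and 5 marker totals, in each genotype), 1 was found, where chance flags about 1 in 20. Aldh1a1 in WT replicate 1 was at 170.2 CPM, and the other 3 WT libraries were at 152, 152 and 155 CPM. The S273A libraries, at 199, 145, 175 and 135 CPM, reached above and below it.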

How the results depend on the processing

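None of the 9 retinoid genes, and none of the other retinoid pathway genes, was called under any of the 14 alternatives. Over all rows, DESeq2 and the fit without S273A replicate 4 each called 1 row, Gdf3, and the range without 1 library was 0 to 1. The median log2 fold change of the tested genes stayed between 0.05 and 0.118. Aldh1a2, Rdh10 and Stra6 kept a positive estimate throughout, with log2 fold changes of 0.107 to 0.413, 0.0369 to 0.151 and 0.0587 to 1.03 in that order. Without 1 library, the log2 fold change ranged from -0.071 to 0.137 for Retsat, from -0.051 to 0.139 for Aldh1a1, from -0.0133 to 0.0413 for Dhrs3 and from -0.0254 to 0.0751 for Aldh1a3, so their signs turned on single libraries; the difference in share ranged from -3.04 to 0.214 percentage points for Aldh1a1, from 0.568 to 2.39 for Aldh1a2 and from -0.783 to 0.65 for Aldh1a3. With the replicate number as a block, Aldh1a2 was at 0.107 (unadjusted edgeR p 0.644), Dhrs3 at -0.0239, Aldh1a3 at -0.00299 and Rarb at -0.0166. No row was called in that fit and the unadjusted count was 94. The labels state no pairing by replicate number. Deviations from the genotype mean correlated at -0.084 between the libraries numbered 2 and at -0.215 between those numbered 3. For other pairs of an S273A and a WT library they correlated at -0.429 to 0.468. Whether libraries share a litter or batch was not tested. Subtracting genotype means gave 2 correlated pairs of genes where there were 0, and leaving out 1 library gave 0 to 1. Relations to marker totals numbered 3 with genotype means subtracted (Dhrs3 with macrophages in addition), 1 with RLE factors (Retsat with adipocytes), 0 by ranks and 0 to 3 without 1 library, where there were 2; the cause was not tested. Depth limits Stra6, Crabp2 and the other genes with few reads.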

Other observations

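Some retinoid genes outside the named set were picked after their values were seen. Stra6l, the gene of another RBP4 receptor, was far above Stra6, at 4.80 against 0.112 CPM per kilobase over the 8 libraries. It was at 35.0, 15.1, 14.0 and 16.2 CPM in S273A replicates 2, 3, 4 and 6, and at 12.3, 29.6, 17.3 and 15.8 CPM in WT replicates 1, 2, 3 and 5. One library in each genotype, both numbered 2, stood high, and the log2 fold change was 0.096 (SE 0.34). Rbp4, the retinol carrier that fat cells secrete, was at 126 ± 35.4 CPM in S273A and 110 ± 31.6 CPM in WT (SD, n = 4 each; log2 fold change 0.19, SE 0.25).

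Lrat, the enzyme that esterifies retinol for storage in liver stellate cells, had 7, 5, 3 and 4 reads in S273A replicates 2, 3, 4 and 6, and 3, 1, 1 and 1 reads in WT replicates 1, 2, 3 and 5. Dgat1, which can also esterify retinol, was at 105 ± 13.4 CPM in S273A and 106 ± 28.8 CPM in WT. Cyp26a1, whose promoter site is printed above, had 2, 0, 8 and 6 reads in S273A and 1, 2, 3 and 0 reads in WT, in the same order of replicates. Lrat and Cyp26a1 did not reach the count minimum and were not tested in the main test. In the fit with no filter on low counts, 0 of 61 other retinoid genes were called, these 2 among them.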
